A study of Mus musculus with 6 samples.

Results

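Mitochondrial fatty acid oxidation genes and targets of the PPAR nuclear receptors were compared between lungs of ob/ob mice given leptin and lungs of ob/ob mice given saline. The set was fixed by name as 9 genes, Cpt1a, Cpt2, Acadm, Acadl, Acadvl, Hadha, Hadhb, Pdk4 and Ucp2, and a probe set was taken as a member when the platform annotation gave it 1 symbol and that symbol was in the set. This gave 13 probe sets of 8 genes, out of 12393 genes with such probe sets. Ucp2, an uncoupling protein relative of the inner mitochondrial membrane, had 0 probe sets under this rule and was not analysed here. The 3 leptin arrays were each hybridised with lung RNA of a leptin-treated animal, and the 3 saline arrays each with lung RNA of a saline-treated one. All animals were females of about 1 month of strain B6.V-Lepob/J, so both groups carry the ob mutation, which leaves the mice without functional leptin, and there was no wild-type group. Labels give 1 animal and 1 lung tissue per array and state neither dose, route nor duration of the treatment.

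Fatty acids enter the mitochondrial matrix as carnitine esters, made by CPT1 on the outer membrane and undone by CPT2 on the inner membrane. Each turn of beta-oxidation then begins with an acyl-CoA dehydrogenase, and for long chains the remaining steps are carried out by the trifunctional protein, whose alpha and beta subunits are encoded by Hadha and Hadhb. PPAR receptors, which bind fatty acids and pair with RXR on DNA, activate many of these genes and also Pdk4, whose product limits glucose oxidation by phosphorylating pyruvate dehydrogenase. Leptin is known to raise fatty acid oxidation in skeletal muscle and liver, and in the lung alveolar type II cells handle large amounts of fatty acid for surfactant.

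The upstream sequences of 3 loci are shown because they hold the entry enzyme of the pathway, the start region that the trifunctional protein genes share and the kinase gene best known as a PPAR target. They are the 250 bases before the annotated start, 5' to 3' in the direction of the gene, from RefSeq on GRCm38.p6, and all 9 genes matched the promoter table. Capitals mark AGGTCA, the core bound by PPAR and RXR, the GC box GGGCGG and the CAAT box CCAAT, each on either strand, with no overlap between them.
Cpt1a, chr19:3323051-3323300, plus strand: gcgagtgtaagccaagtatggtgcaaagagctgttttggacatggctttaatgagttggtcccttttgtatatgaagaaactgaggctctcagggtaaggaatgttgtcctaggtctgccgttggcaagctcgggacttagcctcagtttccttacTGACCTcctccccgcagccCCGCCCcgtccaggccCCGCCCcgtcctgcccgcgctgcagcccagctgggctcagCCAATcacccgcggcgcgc
Hadhb, chr5:30155003-30155252, plus strand: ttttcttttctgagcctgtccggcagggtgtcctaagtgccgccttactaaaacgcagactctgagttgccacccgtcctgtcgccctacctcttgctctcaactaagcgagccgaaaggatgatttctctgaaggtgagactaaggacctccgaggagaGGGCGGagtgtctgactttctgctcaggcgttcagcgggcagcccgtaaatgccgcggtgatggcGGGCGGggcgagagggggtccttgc
Pdk4, chr6:5496279-5496528, minus strand: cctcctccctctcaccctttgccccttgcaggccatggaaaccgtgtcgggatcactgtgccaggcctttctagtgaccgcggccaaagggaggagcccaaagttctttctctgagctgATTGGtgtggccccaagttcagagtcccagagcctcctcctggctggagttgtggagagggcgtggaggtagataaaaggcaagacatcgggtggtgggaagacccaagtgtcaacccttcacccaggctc
Hadha and Hadhb lie head to head with 272 bases between their starts, and 228 bases belong to the upstream windows of both. The window of Cpt1a held 1 AGGTCA core, 2 GC boxes and 1 CAAT box, that of Hadhb 2 GC boxes, and that of Pdk4 1 CAAT box. The core was found in 3 of the 9 windows (Cpt1a, Acadm and Acadvl), against 14.0% of 32851 mouse windows of this length, and the GC box in 6 of 9, against 32.7%. The GC box of Hadha and 1 of the 2 of Hadhb are the same bases, in the part both windows share, so these windows are not separate cases. The CAAT box was found in 2 of 9, against 33.8%. A direct repeat of the core with 1 base of any kind between the copies, the form that PPAR and RXR bind together, was searched on both strands and found in 0 of 9 windows, against 0.0335% of all windows. Only exact copies were searched, and at so low a share 0 of 9 says little about these genes. These matches describe letters in a short window, and sites farther away were not searched.

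One array differed from the rest before any gene was compared, that of saline replicate 1. Over probe sets, which do not count as independent, the log2 correlation with the remaining arrays was 0.438 to 0.447 for this array, against 0.973 to 0.978 among the other 5. Spiked-in control probe sets were a median 29.995-fold above the other arrays on it, and its 10th percentile of intensity was 57.0 against 16.3 to 19.2. It was therefore kept apart, and the members are compared on 5 arrays, 3 leptin and 2 saline, and on all 6. The 12 epithelial markers of lung summed to 162060 to 183575 on leptin arrays, 184300 and 180853 on saline replicates 2 and 3, and 94970.9 on saline replicate 1. Of the last sum, 68879.7 came from the club cell gene Scgb1a1 alone. The other 11 markers were each lower on saline replicate 1 than on any other array, at 0.021 to 0.34 times the median of the other 5, so most of the defining lung genes were low on this array. The p-values and standard errors from limma below rest on the spread between these few samples. For each probe set limma draws that spread towards the one typical of probe sets of like intensity.

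For none of the 8 genes was a difference between leptin and saline lungs larger than the spread between arrays. On the 5 arrays, 12 of the 13 probe sets passed the filter on dim signal and were tested with limma, 6 with a higher and 6 with a lower value under leptin. Of these 12, 0 passed the adjusted threshold of 0.05, 0 were at an unadjusted p under 0.05, and 0 met the series' own rule of a 1.5-fold change. Among all 15838 probe sets tested these shares were 0.0442%, 4.6% and 0.492%. The leptin and saline values overlapped in all 12, whereas groups of 3 and 2 did not overlap in 19.6% of all tested probe sets, 9.92% higher and 9.66% lower with leptin. In bulk lung, fewer cells of a type and less RNA per cell cannot be told apart, and this holds for each value below. The median log2 difference was -0.0052 over the 12 member probe sets and 0.0012 over all tested ones, and the median size regardless of sign was 0.080 against 0.12.

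Each difference below is leptin minus saline on the scale log2(intensity + 22), with its standard error and the 95% interval that limma gives, and limma's adjusted p was 1.00 for each of the 12 probe sets on 5 arrays. Cpt1a, which encodes the liver-type carnitine palmitoyltransferase of the outer membrane and is the step that malonyl-CoA inhibits, had intensities of 1918, 1364 and 1788 in leptin lungs, against 1428 and 1709.6 in the lungs of saline replicates 2 and 3 (probe set 1460409_at). Saline replicate 1 read 1392.5. The groups overlapped, since the lowest and the highest of these 5 values were both leptin arrays. The means were 1690.1 ± 289 in leptin lungs (SD, n = 3), against 1569 ± 199 in saline lungs (SD, n = 2), a difference of 0.10 ± 0.17 with an interval of -0.27 to 0.46.

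The other Cpt1a probe sets carry the suffix x_at, by which Affymetrix marks probe sets whose probes can match other transcripts too. Probe set 1434866_x_at read 106, 93.1 and 269 with leptin and 138 and 147 with saline, and 515 on saline replicate 1. Probe set 1438156_x_at read 24.2, 43.8 and 71.2 with leptin and 40.7 and 48.8 with saline, and 96.1 on saline replicate 1, and it stayed below the filter. Both were highest on leptin replicate 3 among the 5 arrays, which the brightest probe set was not. The first was at -0.018 ± 0.36, with an interval of -0.81 to 0.78 that leaves room for changes of more than 1.5-fold either way.

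Cpt2, whose enzyme releases the fatty acid from carnitine inside the mitochondrion, read 793, 852 and 589 with leptin and 568 and 902 with saline, and 232 on saline replicate 1 (1416772_at). The saline values enclosed all 3 leptin values. The means were 744 ± 138 (SD, n = 3) in leptin lungs, against 735 ± 237 (SD, n = 2) in saline lungs, a difference of 0.037 ± 0.22 with an interval of -0.44 to 0.51. A dim second probe set (1447820_x_at) read 103, 147 and 120.1 with leptin and 154 and 74.6 with saline, and 83.7 on saline replicate 1, at 0.15 ± 0.30. For it too the saline values enclosed the leptin values.

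The 3 acyl-CoA dehydrogenases, which differ in the chain length they prefer, lay close to 0. Acadvl, the membrane-bound very long chain enzyme, read 1732.5, 2152 and 1334 with leptin and 1916 and 1685 with saline, and 629 on saline replicate 1. The leptin values enclosed the saline values, with means of 1739 ± 409 (SD, n = 3) in leptin lungs, against 1800.4 ± 164 (SD, n = 2) in saline lungs. The difference was -0.073 ± 0.18, with an interval of -0.48 to 0.34.

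Acadl, the long chain enzyme, read 1849, 1902 and 2063 with leptin and 1864 and 2134 with saline on its brightest probe set (1448987_at), and 611 on saline replicate 1. These 5 values lay within 1.15-fold of each other, the narrowest range among the 8 brightest probe sets. The means were 1938 ± 112 (SD, n = 3) in leptin lungs, against 1999 ± 191 (SD, n = 2) in saline lungs, a difference of -0.043 ± 0.13 with an interval of -0.33 to 0.24. A second, dim probe set (1448988_at) read 157, 76.0 and 101 with leptin and 92.7 and 78.0 with saline. It was at 0.27 ± 0.31, the furthest from 0 of the 12, and 82.7% of all tested probe sets lay closer to 0. With the replicate number as a block, which leaves leptin replicate 1 without a partner, it was 0.038. On saline replicate 1 it read 632, above the 611 of the brightest probe set on that array, though the levels of different probe sets are not comparable.

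Acadm, the medium chain enzyme, read 1784, 1971 and 2255 with leptin and 1809 and 2275 with saline (1415984_at). Saline replicate 1, at 1982, lay among the other arrays. The means were 2003 ± 237 (SD, n = 3) in leptin lungs, against 2042 ± 329 (SD, n = 2) in saline lungs, and the difference was -0.025 ± 0.15 with an interval of -0.36 to 0.31. With all 6 arrays it was -0.014 ± 0.27, so that Acadm is the member whose value depended least on the doubted array.

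Hadha, the alpha subunit of the trifunctional protein with its hydratase and long chain dehydrogenase activities, read 1415, 1577 and 1278 with leptin and 1340.2 and 1225 with saline (1452173_at). The groups overlapped through leptin replicate 3. The means were 1423 ± 149.8 (SD, n = 3) in leptin lungs, against 1283 ± 81.4 (SD, n = 2) in saline lungs, a difference of 0.14 ± 0.14 with an interval of -0.17 to 0.45. On saline replicate 1 Hadha read 325, 0.243 times the median of the other arrays and the lowest such ratio among the 13 probe sets.

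Hadhb, the beta subunit with the thiolase activity, read 2065, 2184 and 1931.5 with leptin and 2306 and 2079 with saline on its brightest probe set (1426522_at), and 1207 on saline replicate 1. The difference was -0.089 ± 0.13, with an interval of -0.37 to 0.19 and means of 2060.3 ± 126 (SD, n = 3) in leptin lungs, against 2192.5 ± 161 (SD, n = 2) in saline lungs. The subunit genes, which share the start region printed above, thus had differences of opposite sign, about as large as its standard error for Hadha and smaller than it for Hadhb, and both intervals include 0. The second Hadhb probe set (1437172_x_at) read 459.9, 502 and 1007 with leptin and 528 and 710.4 with saline, and 2231 on saline replicate 1. It was at 0.0077 ± 0.29, with leptin replicate 3 at its top, whereas the brightest Hadhb probe set had its lowest value on that array.

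Pdk4, the pyruvate dehydrogenase kinase that fasting and fatty acids induce, read 206, 309 and 383 with leptin and 257 and 374 with saline (1417273_at), and 434 on saline replicate 1. The leptin values enclosed the saline values, and with a range of 1.86-fold over the 5 arrays Pdk4 spread most among the 8 brightest probe sets. The means were 299.6 ± 89.0 (SD, n = 3) in leptin lungs, against 316 ± 83.1 (SD, n = 2) in saline lungs, a difference of -0.088 ± 0.25 with an interval of -0.64 to 0.47. Leptin minus saline was 0.25 for the arrays numbered 2 and 0.032 for those numbered 3, and with the replicate number as a block the direction turned, to 0.14 ± 0.17 (limma adjusted p = 0.864). In that blocked fit leptin replicate 1 has no partner, so the difference rests on replicates 2 and 3 and equals that without leptin replicate 1. In the values without saline replicate 1, the 3 genes closest to Pdk4 in their deviations over the 5 arrays were Ankrd10, Aldh1a7 and Xrcc4, with root mean square differences of 0.061, 0.065 and 0.066 on the log2 scale against a median of 0.37 for all tested probe sets with 1 symbol. The 3 were picked as the smallest of all, so their lying below that median follows from the choice. A shared control with Pdk4 was not tested.

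**Figure D1:**
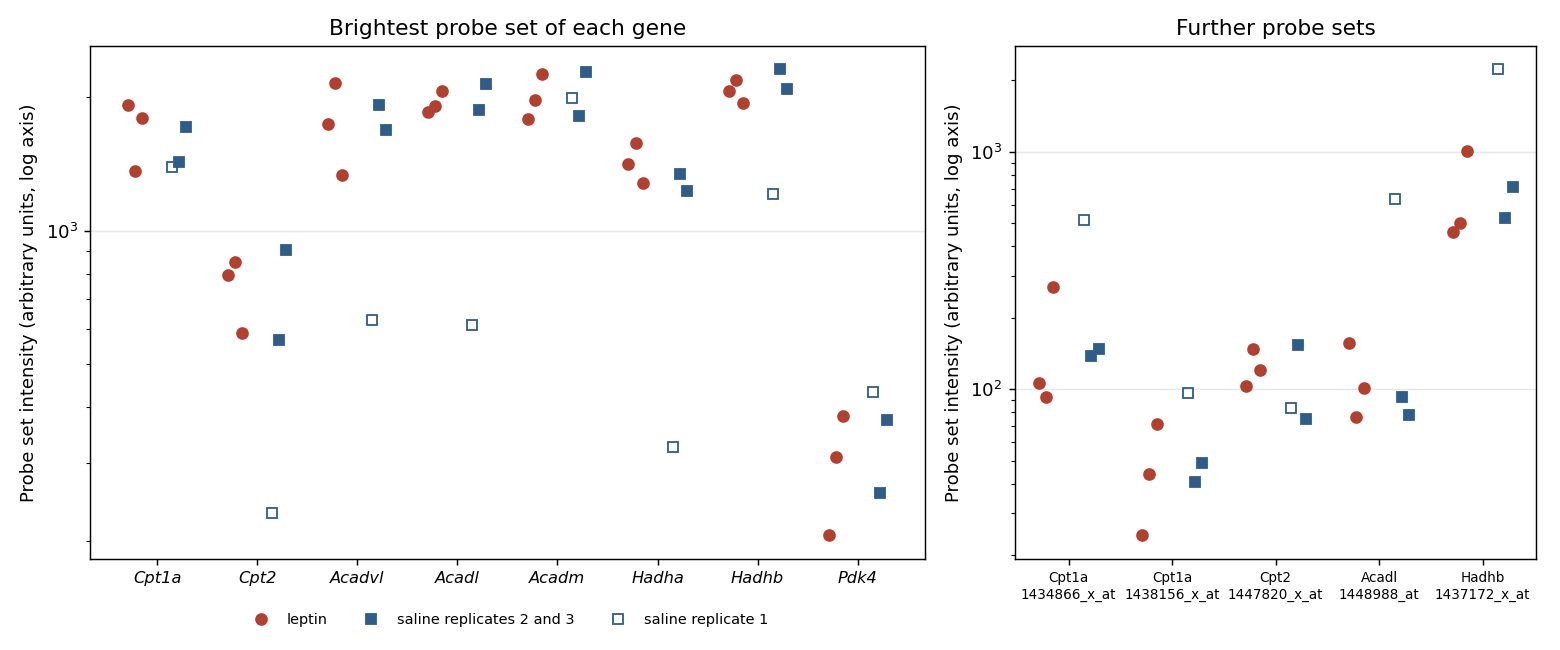
Intensity of each member probe set (log axis) on every array, with leptin arrays as red circles, saline replicates 2 and 3 as filled blue squares and saline replicate 1 as an open square. Leptin and saline values overlap for every probe set, and saline replicate 1 lies far below the other arrays for Cpt2, Acadvl, Acadl and Hadha and above them for 4 of the 5 further probe sets.

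The members had no single order of arrays in common. Among the leptin arrays, replicate 3 had the lowest value of Cpt2, Acadvl, Hadha and Hadhb on the brightest probe sets (589, 1334, 1278 and 1931.5) and the highest of Acadl, Acadm and Pdk4 (2063, 2255 and 383). Of the saline arrays, replicate 3 read above replicate 2 for Cpt1a, Cpt2, Acadl, Acadm and Pdk4 and below it for Acadvl, Hadha and Hadhb. Leptin replicates spread over 1.12-fold for Acadl and 1.13-fold for Hadhb, against 1.61-fold for Acadvl and 1.86-fold for Pdk4.

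The size of change that these 5 arrays leave room for differed between members. In 7 of the 8 brightest probe sets the whole interval lay within a 1.5-fold change in either direction, the exception being Pdk4, where the lower end was -0.64. Over bright and dim probe sets together, 7 of the 12 tested members had such an interval, against 58.2% of all tested probe sets. None of the 4 further probe sets that were tested had one, and all 12 intervals lay within 2-fold. The intervals hold for 1 probe set at a time and rest on 3 and 2 arrays. A true difference of any size inside an interval remains compatible with these values, so absence of a change was not shown.

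**Figure D2:**
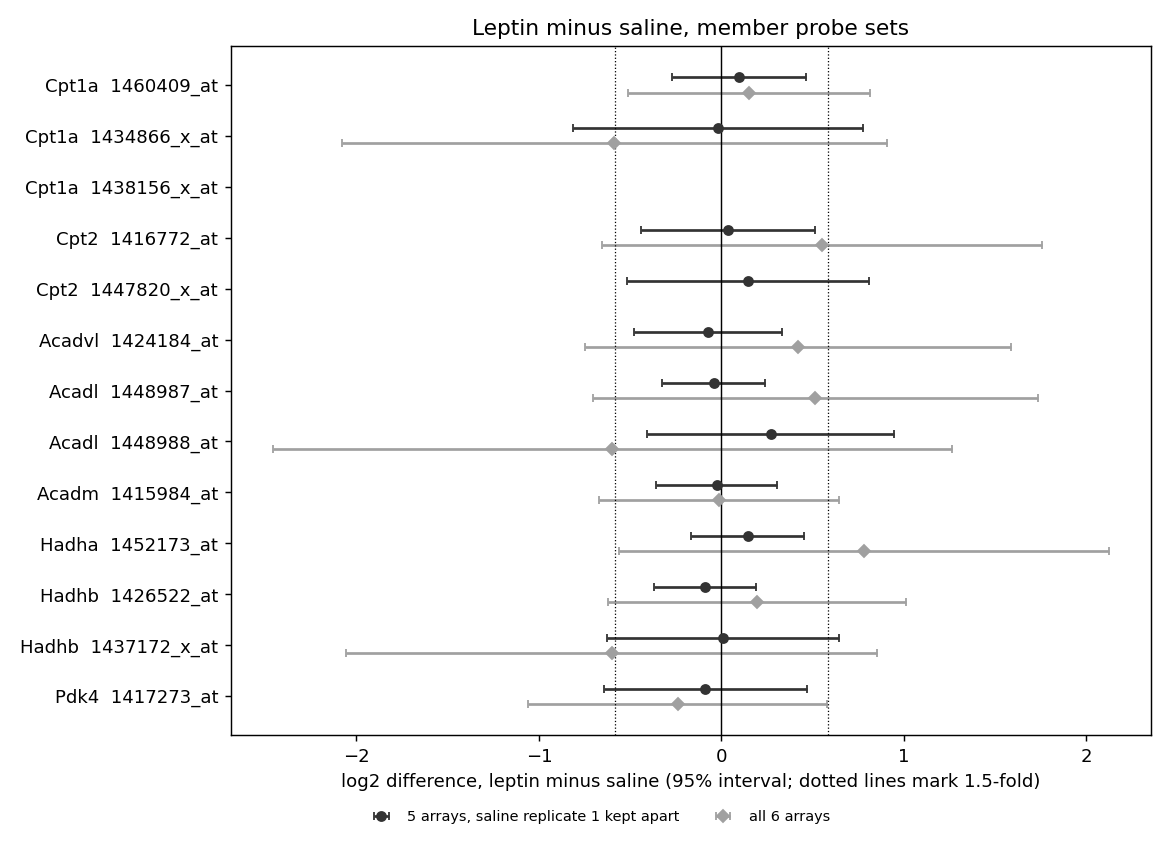
Differences on the log2 scale, leptin minus saline, with 95% intervals from limma for each tested member probe set on 5 arrays (dark circles) and on all 6 (grey diamonds), with dotted lines at a 1.5-fold change. All dark intervals include 0, and the grey ones are wider, reaching from -0.56 to 2.12 for Hadha; Cpt1a 1438156_x_at was below the filter.

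On all 6 arrays the comparison as designed gave larger errors for each of the 11 tested probe sets and values further from 0 for all but Acadm, given above. Of 11 tested member probe sets 0 passed the adjusted threshold, 0 were at an unadjusted p under 0.05, 0 met the series' rule and 0 had groups that did not overlap, against 0.0%, 0.385%, 0.202% and 9.1% of all tested probe sets, the last made up of 5.0% higher and 4.1% lower with leptin. Hadha was at 0.78 ± 0.56, Cpt2 at 0.55 ± 0.50, Acadl at 0.51 ± 0.51, Acadvl at 0.42 ± 0.48, Hadhb at 0.19 ± 0.34, Cpt1a at 0.15 ± 0.27 and Pdk4 at -0.24 ± 0.34 (limma adjusted p from 0.715 to 0.980 over the 11). The direction differed from that on 5 arrays in 5 of the 11, namely the brightest probe sets of Acadl, Acadvl and Hadhb and the second ones of Acadl and Hadhb.

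The values on 6 arrays follow the reading of saline replicate 1. Against the median of the other 5 arrays its signal was 0.292 for Cpt2, 0.363 for Acadvl, 0.322 for Acadl and 0.243 for Hadha, 0.581 for Hadhb and 0.815 for Cpt1a. It was 1.01 for Acadm and 1.40 for Pdk4. The further probe sets of Acadl, Hadhb and Cpt1a went the other way, at 6.82 for Acadl, 4.22 for Hadhb and 3.74 and 2.19 for Cpt1a, so that probe sets of 1 gene opposed each other on that array. Of all tested probe sets, 34.1% lay below 0.5 times and 27.6% above 2 times the other arrays there, against 4 of the 13 members below and 4 above.

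**Figure D3:**
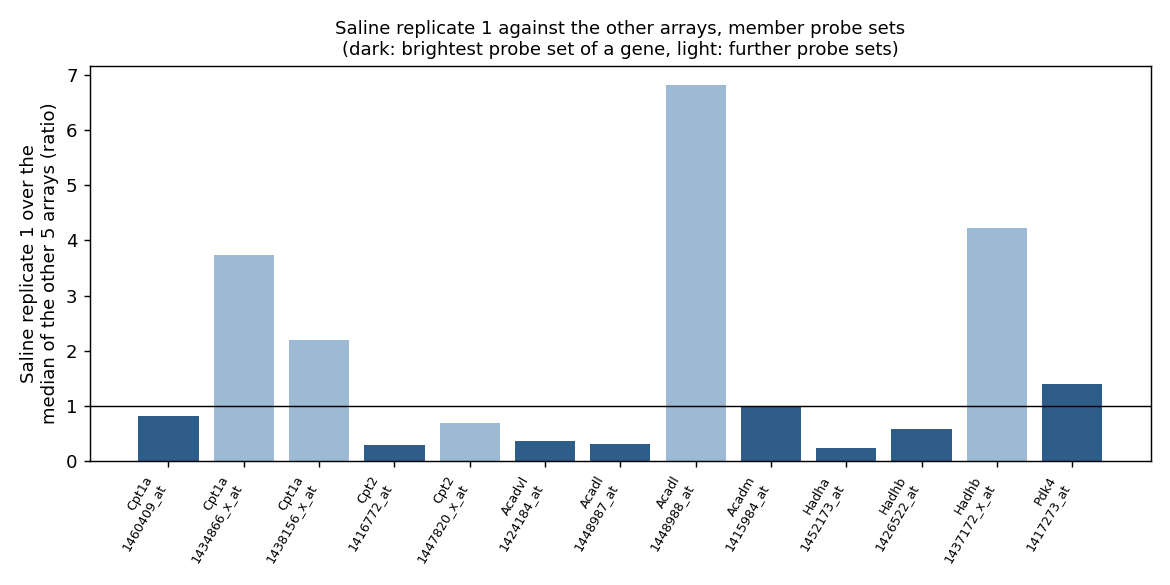
Signal on saline replicate 1 divided by the median of the other 5 arrays, for the 13 member probe sets (dark bars the brightest of a gene, light bars further ones, line at 1). The ratio runs from 0.243 for Hadha to 6.82 for the second Acadl probe set, and Acadm sits at 1.01.

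The rest of the pathway was examined through 7 lists. Of their 107 genes, 89 had a probe set with 1 symbol and 77 were tested on the 5 arrays, 32 higher and 45 lower with leptin. Again 0 passed the adjusted threshold in limma, 0 were at an unadjusted p under 0.05 (4.6% of all tested) and 0 met the series' rule. Groups did not overlap in 14 of the 77, or 18.2%, 7 higher and 7 lower, against 19.6% of all tested probe sets. On all 6 arrays 76 were tested, 44 higher and 32 lower with a median of 0.21, and 41 of the 76 had the other direction than on 5 arrays, so that the directions below hold for the 5 arrays. With the replicate number as a block, 5 of the 77 were at an unadjusted p under 0.05 against 7.21% of all tested probe sets, and 0 passed. These 5, chosen after their values were seen, were Creb3l3 at 1.11, Mlycd at -0.46, Prkag1 at -0.32, Acot1 at 0.40 and Lpl at -0.26 in the blocked fit (limma adjusted p from 0.624 to 0.673).

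Of the other genes of mitochondrial beta-oxidation and the carnitine shuttle, 20 were tested, 6 higher and 14 lower, with a median of -0.069. Acad9, which also helps assemble respiratory complex I, was at -0.64 ± 0.30, with 143, 178 and 351 with leptin and 339 and 334 with saline. Leptin replicate 3 lay above both saline arrays, so the groups overlapped, and a second Acad9 probe set was at 0.17. Acads, the short chain dehydrogenase, read 493, 487 and 457 with leptin and 537.5 and 578 with saline, a difference of -0.21 ± 0.15 without overlap. Hadh and Echs1, which act on shorter chains after the dehydrogenase step, were both at -0.15, SE 0.12 and 0.14, and Hadh, at 37076 on saline replicate 1 against 4468 to 5756 on the other arrays, was at -1.07 on all 6. Echs1 was at 0.65 on all 6 arrays, and the list was 13 higher and 7 lower, with a median of 0.37.

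Of the peroxisomal genes 13 were tested, 5 higher and 8 lower, with a median of -0.066. Pex11a, a peroxisome division factor, read 574, 791 and 731 with leptin and 889.7 and 825 with saline, at -0.30 ± 0.16. Acaa1a, a peroxisomal thiolase, read 959.6, 806 and 883 with leptin and 1074 and 1003 with saline, at -0.23 ± 0.14. These were the 2 of the 13 genes without overlap, both lower with leptin. Over all tested probe sets 19.6% had no overlap, 9.66% lower with leptin. The other Pex11a probe set was at 0.26 and the other Acaa1a probe set at -0.29. Amacr, which converts branched-chain acyl-CoAs, was at 0.43 ± 0.28 and Abcd3, a peroxisomal acyl-CoA transporter, at 0.23 ± 0.16. The list was 9 higher and 4 lower on all 6 arrays, with a median of 0.30.

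The PPAR receptors themselves gave little signal. The probe sets of Ppara, Ppard and Pparg stayed below the filter, at 22.2 to 93.9, 4.4 to 6.3 and 18.6 to 41.8 on leptin arrays and 28.4 and 62.4, 5.4 and 5.9, and 14.7 and 36.3 on saline replicates 2 and 3, so no difference was tested for them. Of 9 tested partners and coregulators 6 were higher and 3 lower, with a median of 0.051. Ppargc1b, a coactivator of oxidative metabolism, read 256, 151 and 102 with leptin and 92.2 and 105.5 with saline, at 0.59 ± 0.32 with overlap, but at -0.57 on all 6 arrays, since saline replicate 1 read 1318. Its relative Ppargc1a read 162, 141 and 159 with leptin and 127 and 129 with saline, at 0.23 ± 0.21 without overlap, and at -0.16 on all 6 arrays. The RXR partner Rxra was at -0.19 ± 0.17 and the coactivator Ncoa1 at -0.14 ± 0.14, with other probe sets at -0.28 for Rxra and 0.020 for Ncoa1. Both turned on all 6 arrays, to 0.51 for Rxra and 0.44 for Ncoa1, and the list was 4 higher and 5 lower, with a median of -0.010.

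Of the other PPAR targets 17 were tested, 8 higher and 9 lower, with a median of -0.027. Fabp5, a fatty acid binding protein that macrophages also make, read 3002, 3401 and 2807 with leptin and 3628 and 3773 with saline, at -0.27 ± 0.12 without overlap, and its other probe set was at -0.35. Lpl, the lipase that frees fatty acids from lipoproteins, read 5536, 5251 and 6167 with leptin and 6140.4 and 7597 with saline, at -0.28 ± 0.13. Acot1, an acyl-CoA thioesterase, read 520.4, 579.9 and 723 with leptin and 485.5 and 486 with saline, at 0.30 ± 0.17 without overlap. Creb3l3, a liver and gut transcription factor, was at 0.68 ± 0.43, led by 285 on leptin replicate 2 against 66.2 and 129 on the other leptin arrays and 69.8 and 85.9 with saline. It read 1215.5 on saline replicate 1 and was at -0.53 on all 6 arrays. The well-known targets Angptl4, Plin2 and Cd36 were at -0.054, -0.066 and 0.0015, and on all 6 arrays at 0.041, 0.83 and 0.78. With saline replicate 1 included 16 targets were tested, 9 higher and 7 lower, with a median of 0.14.

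Pyruvate dehydrogenase genes, which stand opposite Pdk4, were 3 higher and 4 lower of 7, with a median of -0.048. The E2 subunit gene Dlat was at -0.21 ± 0.19, the E1 subunit gene Pdhb at -0.10 ± 0.12, and the kinases Pdk3 and Pdk2 at 0.16 ± 0.16 and -0.10 ± 0.16. A second Pdhb probe set was at 0.10. Pdhb turned on all 6 arrays, to 0.18, and the list was 5 higher and 2 lower, with a median of 0.49.

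Among relatives of the uncoupling proteins 5 were tested, 4 higher and 1 lower, with a median of 0.17. These were led by Slc25a30 at 0.18 ± 0.15, which has other probe sets at -0.23, 0.22, -0.32 and -0.20, and Slc25a14 at 0.24 ± 0.27, with the adenine nucleotide carriers Slc25a4 at -0.084 ± 0.12 and Slc25a5 at 0.17 ± 0.32. Other probe sets were at 0.14, 0.32 and 0.17 for Slc25a4, opposite to its brightest one, and at 0.043 to 0.46 for Slc25a5. On all 6 arrays Slc25a30 was at -0.034, Slc25a14 at -0.50 and Slc25a4 at 0.88, and the list was 2 higher and 3 lower, with a median of -0.034. Ucp1, the uncoupler of brown fat, lay at 5.3 to 13.4 on leptin arrays and at 9.8 and 8.7 on saline replicates 2 and 3, below the filter.

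In the list of AMP-activated kinase and malonyl-CoA control, which sets the inhibitor of CPT1, 1 of 7 was higher and 6 were lower, with a median of -0.18. Mlycd, which degrades malonyl-CoA, read 502, 370.4 and 323 with leptin and 467 and 505 with saline, at -0.29 ± 0.19. The kinase subunit gene Prkag2 was at -0.34 ± 0.25, and the upstream kinase gene Stk11 at -0.18 ± 0.14, with 763, 729.7 and 712 with leptin and 837.5 and 837 with saline. A second Stk11 probe set, below the filter, was at 0.14. Acaca, a malonyl-CoA producer, read 209, 208 and 182 with leptin and 152 and 181 with saline, at 0.24 ± 0.20 without overlap. On all 6 arrays Prkag2 was at 0.022 and Acaca at -0.16, and 2 of the list were higher and 5 lower, with a median of -0.16.

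**Figure D4:**
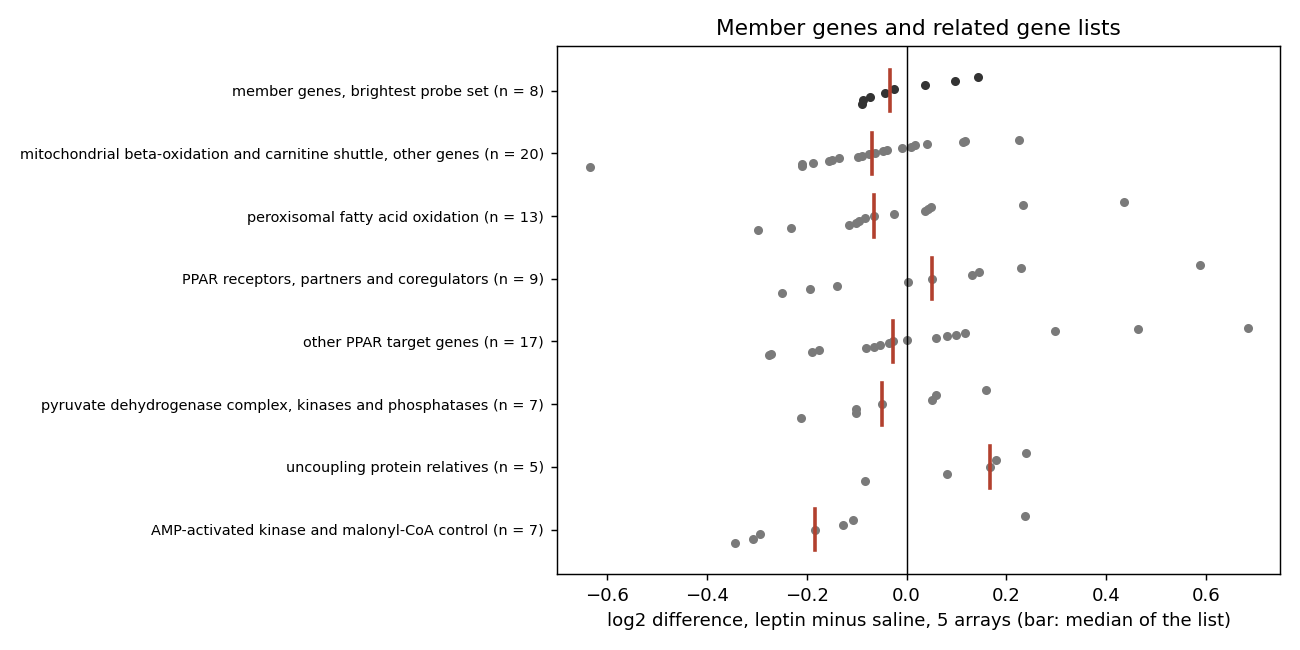
Difference on the log2 scale, leptin minus saline on 5 arrays, of each tested gene in the member set and the 7 related lists (points, spread vertically for legibility), with the median of each list as a red bar. Medians run from -0.18 for AMP-activated kinase and malonyl-CoA control to 0.17 for the uncoupling protein relatives.

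Markers of cells that could bring their own oxidation enzymes were summed per array. Cardiac muscle, which lines the pulmonary veins of mice, summed to 14754 to 19795 with leptin and to 18589 and 17959.9 with saline (replicates 2 and 3, as for all sums here), with 3 of 10 markers higher and 7 lower with leptin. White adipocyte markers (4 of 6 measured) summed to 1203 to 1361 with leptin and 1184 and 1265 with saline, and brown adipocyte markers (4 of 4) to 327 to 390 with leptin and 355 and 384 with saline. Skeletal muscle markers (6 of 6) summed to 1024 to 1384 with leptin and 879 and 909.8 with saline, 5 of 6 higher, though 3 of them lay below the filter. Macrophage markers summed to 11938 to 13923 with leptin and 12056 and 14169 with saline, and 7 of 8 were higher, the exception being Fabp5. Lymphocyte markers (8 of 9 measured) summed to 2128 to 3067 with leptin and 2215 and 1935 with saline, all 8 higher. Erythroid markers (5 of 7 measured) summed to 4455 to 5722 with leptin and 12629.8 and 10717 with saline, all 5 lower. Endothelial markers summed to 19552 to 21739 with leptin and 19519.6 and 20036 with saline. Besides those of skeletal muscle, 1 white adipocyte, 2 brown adipocyte, 1 macrophage, 2 lymphocyte and 1 erythroid marker lay below the filter. The part of these cells in the values of the 8 genes was not tested.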

How the data were processed

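Lung RNA of 3 leptin-treated and 3 saline-treated ob/ob mice was measured on Affymetrix Mouse 430A arrays. The authors deposited 1 linear intensity per probe set and array. How the scans were summarised is not given in the sources used here. On each array a mean trimmed by 2% at each end lay between 500.10 and 500.14, so the authors' values had been scaled to a common mean. The number of arrays limits the precision.

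Of 22690 probe sets, 64 controls were left out. Of the other 22626, 20380 had 1 symbol, 691 several and 1555 none. All 8 measured member symbols were unchanged in RefSeq (GRCm38.p6) by Entrez ID. Values were turned into log2(intensity + 22), the 10th percentile, which understates changes of dim probe sets. The lowest 30% by mean log2 value were dropped, leaving 15838. limma 3.58.1 in R 4.3.3 (trend, two-sided, Benjamini-Hochberg over all tested, threshold 0.05) was run on 5 and on 6 arrays. The fit was tested on simulated data. The series' rule was 1.5-fold, p under 0.05 (pooled-variance test, chosen here since none is named) and 6 of 9 pairwise comparisons, or 4 of 6 on 5 arrays.

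List genes were represented by their brightest tested probe set. Those named have the 4 smallest p-values of each list, and further ones (Angptl4, Plin2, Cd36, Ppara, Ppard, Pparg, Ucp1, Prkag1) were chosen after their values were seen. Members and lists were chosen with earlier results of these data known. The likeness to Pdk4 was the root mean square difference of log2 deviations from each probe set's mean.

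The labels do not say that replicate numbers pair animals. For leptin and saline arrays of the same number, deviations from the group mean had correlations of 0.103 to 0.144, and for different numbers -0.147 to 0.049. Saline replicate 1 was not kept apart in these group means. Deviations within a group also cancel out, so these correlations depend on each other. They therefore cannot decide whether the numbers pair samples. Alternatives were a block on replicate number, array weights, no variance trend, each array left out, pseudocounts of 79.9 and 1, quantile normalization or a common median, filters at 50% or none, a threshold of 0.10, and averaging the probe sets of a gene.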

Additional observations from a re-analysis of the deposited data

How the results depend on the processing

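No member probe set passed the adjusted threshold under any alternative run: over 172 values on 5 arrays the smallest limma adjusted p was 0.792, and over 182 on 6 arrays 0.492. The sign turned in 27 of the 172 and 17 of the 182. It could not turn at a threshold of 0.10, without the trend or with another filter, which leave each difference unchanged. On 5 arrays the replicate block compares replicates 2 and 3 alone, since leptin replicate 1 has no partner there. With this block Cpt1a was at -0.00041 (1434866_x_at 0.15), Cpt2 at -0.015, Acadm at 0.055 and Pdk4 at 0.14, and Acadl 1448988_at was at 0.038 against 0.27. It left the count of all probe sets past the threshold at 0, against 7, and changed no member call. A pseudocount of 79.9 put Cpt1a 1434866_x_at at 0.0095, quantile normalization put Hadhb 1437172_x_at at -0.0030 and a common median at -0.0083, and the mean of probe sets put Acadl at 0.11. Leaving out each array in turn gave -0.031 to 0.24 for Cpt1a (1434866_x_at -0.44 to 0.23), -0.29 to 0.36 for Cpt2 (1447820_x_at -0.29 to 0.58), -0.19 to 0.14 for Acadm, -0.14 to 0.054 for Acadl (1448988_at 0.17 to 0.47), -0.24 to 0.10 for Acadvl, 0.068 to 0.22 for Hadha, -0.16 to -0.014 for Hadhb, -0.34 to 0.21 for Hadhb 1437172_x_at and -0.34 to 0.17 for Pdk4. For 1448988_at the range lacks the value without leptin replicate 1, where it fell below the filter. The blocked fit, whose difference does not draw on that array, gave 0.038. On 6 arrays, array weights gave 0.014 for Acadm, -0.013 for Acadl (1448988_at 0.20), -0.065 for Acadvl and -0.095 for Hadhb (1437172_x_at 0.039), a common median 0.14 for Acadm, and the mean of probe sets -0.22 for Cpt1a, -0.042 for Acadl and -0.20 for Hadhb. Leaving out each of 6 gave -0.10 to 0.074 for Acadm, -0.043 to 0.84 for Acadl (1448988_at -1.08 to 0.27), -0.073 to 0.71 for Acadvl and -0.089 to 0.37 for Hadhb (1437172_x_at -1.01 to 0.0077). Over all probe sets, the 7 calls on 5 arrays were 0 without the trend, without the filter, with a pseudocount of 1, or with quantile or median scaling, 13 at a threshold of 0.10, and 0 to 3 with an array left out. The 0 calls on 6 arrays were 8 with array weights (saline replicate 1 at a weight of 0.026) and 0 to 7 with an array left out, 7 being the count without saline replicate 1. With an array left out, the series' rule gave 72 to 145 against 78 on 5 arrays (137 without saline replicate 2 and 145 without saline replicate 3), and 16 to 89 against 32 on 6 (16 without leptin replicate 1, and 78, 79 and 89 without saline replicates 1, 2 and 3). The cause of these changes was not tested.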
